A study of Mus musculus with 8 samples.

Results

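The AP-1 transcription factors described here are the products of 10 genes, Jun, Junb, Jund, Fos, Fosb, Fosl1, Fosl2, Atf3, Maff and Batf, chosen by name from 55536 genes with an identifier in the count table. Their mRNA was measured by RNA sequencing in whole livers of C57BL/6 mice aged 2 months. In the knockdown group (n = 4) the mice had received an adenovirus against Eif4ebp3, whose protein is an inhibitor of the translation factor eIF4E. In the control group (n = 4) the adenovirus was directed at lacZ, a bacterial gene that mice lack. Both groups were wild-type in genotype, received 0.1 OD of virus, and were killed 1 week later after an overnight fast, so virus and fasting were common to all 8 livers. The labels do not state which promoter drove the hairpins or which liver cells the virus reached.

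AP-1 is a family of dimers of basic leucine zipper proteins that bind short palindromic sites in promoters and enhancers. Jun proteins pair with one another or with Fos proteins, whereas Fos proteins need a partner. ATF3, BATF and the small Maf protein MafF carry the same kind of zipper and form other dimers. Several of these genes are immediate-early genes, whose transcription is raised within minutes by MAP kinase signalling, and in liver c-Jun is known for its part in hepatocyte proliferation after injury.

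The promoter windows of the members that matched a searched motif for cyclic AMP response or Jun and ATF2 sites are printed first, since AP-1 proteins are known to act on promoters of their own family. RefSeq gave windows from 250 bases before to 50 bases after a start site on GRCm38.p6 for 9 of the 10 members. The following 5 windows of 300 bases each run 5′ to 3′ on the strand of the gene, and capitals mark motif matches.
Jun promoter, chr4:95052173-95052472, minus strand: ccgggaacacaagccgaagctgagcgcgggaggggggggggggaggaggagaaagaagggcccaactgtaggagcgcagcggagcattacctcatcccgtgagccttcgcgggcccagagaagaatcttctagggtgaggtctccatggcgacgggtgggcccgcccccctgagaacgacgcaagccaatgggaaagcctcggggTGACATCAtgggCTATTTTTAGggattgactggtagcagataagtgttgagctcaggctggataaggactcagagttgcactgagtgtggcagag
Fos promoter, chr12:85473640-85473939, plus strand: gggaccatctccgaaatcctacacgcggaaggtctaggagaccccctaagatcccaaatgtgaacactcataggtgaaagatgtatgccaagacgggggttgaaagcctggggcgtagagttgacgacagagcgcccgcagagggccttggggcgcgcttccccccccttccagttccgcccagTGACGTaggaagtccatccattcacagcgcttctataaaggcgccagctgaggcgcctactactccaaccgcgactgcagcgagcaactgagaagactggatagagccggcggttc
Atf3 promoter, chr1:191183284-191183583, minus strand: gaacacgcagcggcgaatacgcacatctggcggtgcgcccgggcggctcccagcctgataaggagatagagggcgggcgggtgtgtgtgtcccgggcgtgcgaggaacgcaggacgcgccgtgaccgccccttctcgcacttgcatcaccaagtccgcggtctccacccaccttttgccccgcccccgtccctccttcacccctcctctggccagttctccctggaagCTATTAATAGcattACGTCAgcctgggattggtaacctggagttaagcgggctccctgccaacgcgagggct
Maff promoter, chr15:79347270-79347569, plus strand: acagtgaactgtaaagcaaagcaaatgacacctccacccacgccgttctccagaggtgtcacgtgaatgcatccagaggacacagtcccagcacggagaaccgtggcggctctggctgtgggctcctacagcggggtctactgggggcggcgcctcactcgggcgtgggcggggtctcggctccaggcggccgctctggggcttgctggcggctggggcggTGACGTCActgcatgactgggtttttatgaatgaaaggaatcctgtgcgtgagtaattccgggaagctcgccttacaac
Batf promoter, chr12:85686470-85686769, plus strand: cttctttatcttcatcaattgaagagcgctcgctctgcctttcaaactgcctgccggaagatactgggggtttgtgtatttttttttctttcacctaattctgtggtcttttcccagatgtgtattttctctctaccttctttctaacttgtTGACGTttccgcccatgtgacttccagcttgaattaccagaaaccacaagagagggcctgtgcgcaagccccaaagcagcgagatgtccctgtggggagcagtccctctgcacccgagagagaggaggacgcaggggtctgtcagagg
The Jun window held TGACATCA at bases -45 to -38 from the start site, a site known to bind Jun and ATF2, and a MEF2 site at -33 to -24. The core TGACGT, searched on both strands, was found at -66 to -61 in Fos, at -98 to -93 in Batf and, on the other strand, at -8 to -3 in Atf3, which also held a MEF2 site at -22 to -13. Maff held the full palindrome TGACGTCA at -29 to -22 in the window shown, which contains TGACGT on each strand. Its other windows held TGACATCA at -45 to -38 from a later start and TGACNNNGC, the antioxidant response element that small Maf proteins bind with NRF2, at -112 to -104 from an earlier one. Over all 32851 RefSeq windows of this length, 7.51% held TGACGT, 1.79% TGACGTCA, 3.62% TGACATCA, 12.4% TGACNNNGC and 3.19% the MEF2 site. The core TGACGT was added to the search after the member promoters were read, so its share over all windows cannot show enrichment in the members. The AP-1 consensus TGANTCA, in 7.81% of all windows, and the CArG box of the serum response factor, in 1.63%, matched none of the member windows. Bases more than 250 before or 50 after a start site were not searched, so sites lying there would be missed. The Jund window began from a start site 1210 bases upstream of the annotated gene. A match is a description of these letters and not a measured site.

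Total counts ranged from 24189202 to 32073994 per liver, and 15375 genes passed the filter on low counts. Values are CPM, normalised read counts on library sizes scaled by TMM factors, and a gene is said to have risen or fallen where the adjusted p of edgeR's quasi-likelihood test was under 0.05 over all genes tested. Eif4ebp3 fell, with 9.62, 13.9, 37.2 and 19.5 CPM in the knockdown livers and 289, 216, 204 and 49.3 CPM in the controls (log2 fold change -3.24 ± 0.53, SE; adjusted p = 0.000379, edgeR). Control replicate 4 thus held the lowest Eif4ebp3 level of the controls, and for most AP-1 genes it was the control nearest the knockdown livers, so the values of most members and the counts of each gene list are given with and without it. Its sample code carries the letter D, as does that of knockdown replicate 4, while the other codes carry C, and no label explains the letter. In these bulk samples, more cells of a type and more RNA per cell cannot be told apart. Of the liver's cell type markers, 9 of 10 hepatocyte markers fell and 0 rose. Among markers of other cells that were tested, 12 of 13 for macrophages rose, as did 7 of 10 for stellate cells and 9 of 11 for T and NK cells. Of the markers tested for endothelial cells 1 of 8 rose and 2 fell, for neutrophils 1 of 5 rose and 0 fell, and for cholangiocytes 2 of 5 rose and 1 fell. For comparison, 29.5% of all genes tested rose and 27.8% fell. No tested marker was at 0 in all samples of a group. The median log2 fold change of the 10 hepatocyte markers was -1.14. The 1 hepatocyte marker that did not fall was the albumin gene Alb. It held 42113 ± 4191 CPM in knockdown livers and 40862 ± 4895 CPM in controls (SD, n = 4 each).

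All 10 AP-1 genes rose in the knockdown livers, against 29.5% of all genes tested that rose and 57.2% that passed in either direction, and their median log2 fold change was 1.80 against 0.00 for all genes tested. Members and gene lists were chosen with earlier results of these data known, so such comparisons, here and below, are a description. Every knockdown liver lay above every control for 9 of the 10, the exception being Junb, and 27.4% of all genes tested showed the same separation. Only 7 of the members would have passed the low-count filter on the control livers alone. Fosb, Fosl1 and Batf passed only with the help of their knockdown values, with 1, 0 and 3 of the 4 controls over the filter. The filter thus fixed the direction of Fosl1, nearly fixed that of Fosb, and favoured a rise for Batf. Without normalisation factors the median gene shifted by 0.57 on the log2 scale, and the 10 members still rose, as did 63.9% of all genes. Without control replicate 4 all 10 rose too, against 30.6% of all genes.

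**Figure D1:**
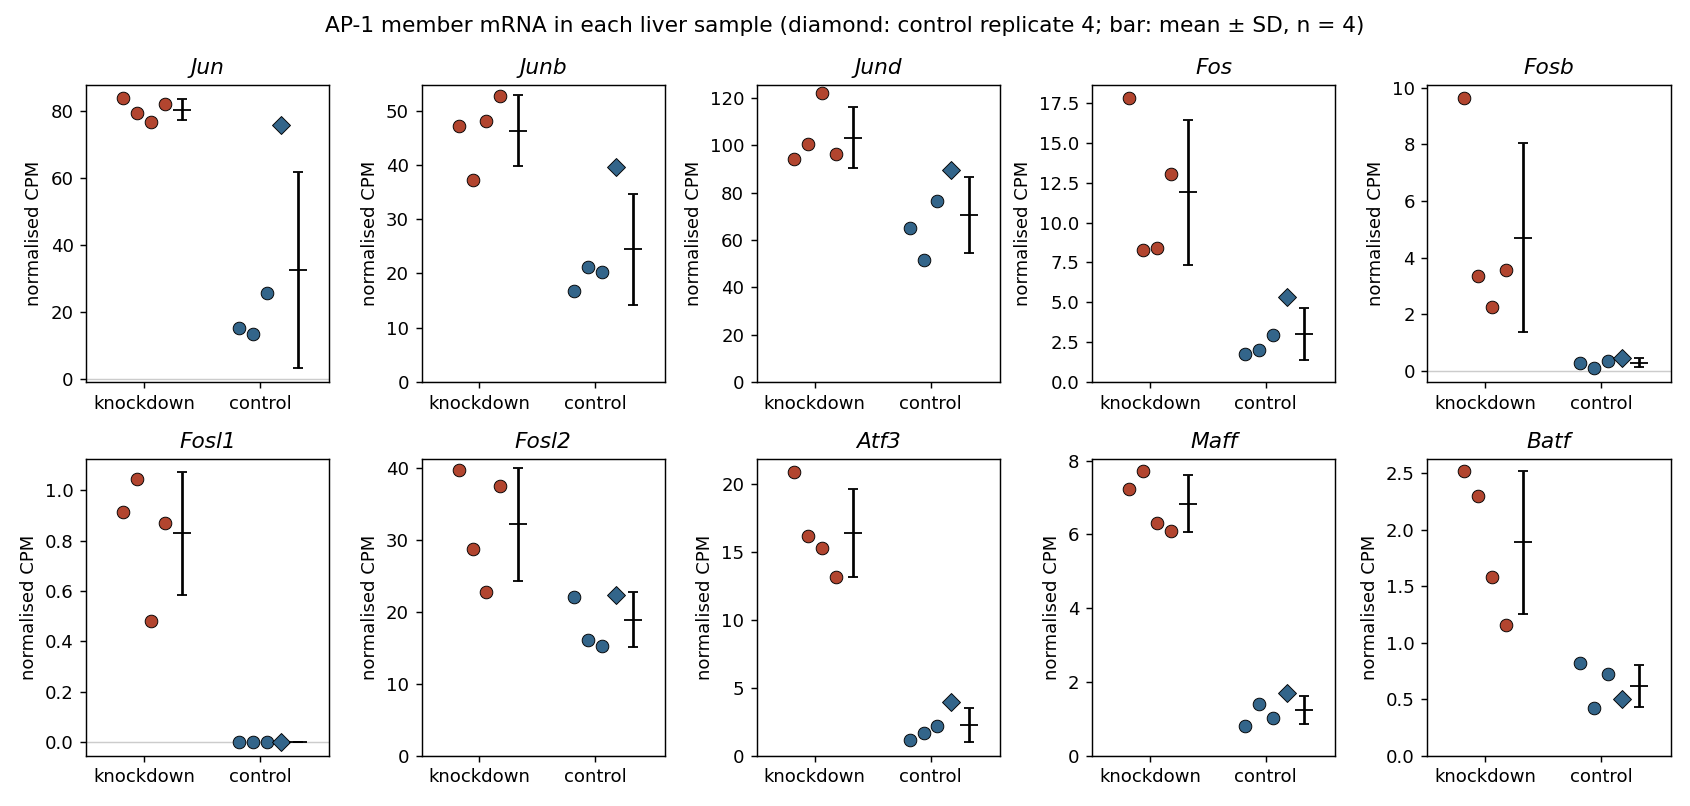
Normalised CPM (vertical axis, linear, a scale for each gene) of the 10 AP-1 genes in each of 4 knockdown (red) and 4 control (blue) livers; a diamond marks control replicate 4 and the bars show the mean ± SD. Control replicate 4 lies at 75.8 CPM for Jun, next to the knockdown livers, while Fosl1 is at 0 in every control.

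Jun, the founding member and the strongest activator among the Jun proteins, lies on chromosome 4 at 95049034 to 95052222 of mm10 (ENSMUSG00000052684). It held 83.6, 79.3, 76.5 and 82.0 CPM in the knockdown livers, against 15.3, 13.3, 25.6 and 75.8 CPM in the controls. The knockdown livers were alike and high, 3 controls were low, and control replicate 4 stood just below the lowest knockdown liver. The log2 fold change was 1.30 ± 0.45 (SE; adjusted p = 0.0283, edgeR). It was 2.15 ± 0.19 without control replicate 4 (adjusted p = 5.37e-06, edgeR). The Jun call was the least secure of the 10. Leaving out each liver in turn kept it in 2 of 8 fits and lost it in 6, with log2 fold changes of 1.04 to 2.15 and adjusted p of 5.37e-06 to 0.0733 (edgeR). With DESeq2 the adjusted p was 0.0519.

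Junb, a weaker activator that can oppose c-Jun, lies on chromosome 8 at 84974484 to 84978718. It held 47.2, 37.2, 48.1 and 52.6 CPM in the knockdown livers, against 16.8, 21.2, 20.2 and 39.6 CPM in the controls. Control replicate 4 overlapped knockdown replicate 2, and the other controls were below every knockdown liver. Junb rose by 0.92 ± 0.23 (log2, SE; adjusted p = 0.00566, edgeR), and by 1.25 ± 0.13 without control replicate 4. Its exons share 173 bases with Prdx2, a peroxiredoxin gene on the opposite strand, which held 75.7 ± 6.52 CPM in knockdown livers and 75.8 ± 3.45 CPM in controls (SD, n = 4 each).

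Jund, the Jun gene that is expressed in resting cells with little induction, lies on chromosome 8 at 70698949 to 70700616. It held 94.1, 100.4, 122 and 96.5 CPM in the knockdown livers, against 65.1, 51.4, 76.3 and 89.5 CPM in the controls. The groups did not overlap, though the gap to control replicate 4 was small. Jund rose by 0.55 ± 0.15 (log2, SE; adjusted p = 0.0102, edgeR), the smallest log2 fold change of the 10 members, and by 0.68 ± 0.14 without control replicate 4.

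Fos, the classical immediate-early partner of Jun, lies on chromosome 12 at 85473890 to 85477273. It held 17.8, 8.29, 8.39 and 13.1 CPM in the knockdown livers, against 1.73, 2.01, 2.93 and 5.34 CPM in the controls. Every knockdown liver was higher than every control, and the knockdown livers differed among themselves by more than 2-fold. Fos rose by 1.98 ± 0.36 (log2, SE; adjusted p = 0.000763, edgeR), and by 2.42 ± 0.32 without control replicate 4.

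Fosb, which encodes an inducible Fos protein and a shorter form that lacks the activation domain, lies on chromosome 7 at 19302696 to 19310051. It held 9.62, 3.37, 2.27 and 3.57 CPM in the knockdown livers, against 0.288, 0.0935, 0.360 and 0.457 CPM in the controls, which had 6, 2, 7 and 10 counts. Knockdown replicate 1 was far above the other knockdown livers, and all controls were near the limit of detection. The log2 fold change was 3.95 ± 0.56 (SE; adjusted p = 0.00014, edgeR), for a gene whose direction the low-count filter had nearly fixed. Over the fits that left out each liver in turn it was 3.34 to 4.24.

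Fosl1, which encodes FRA1, a Fos protein without a strong activation domain that is itself a target of AP-1, lies on chromosome 19 at 5447547 to 5455946. It had 29, 36, 14 and 34 counts in the knockdown livers and 0 counts in every control. Taken as a group the knockdown livers held 0.842 CPM. Against a floor of 3 counts over the control group, which is 0.0359 CPM, this was 23.5-fold higher. That fold depends on the floor chosen and does not cover the error of the knockdown counts. The lower limit of the exact (Clopper-Pearson) 95% interval of the ratio to the controls, which covers counting error only, was 18.8. The test across all genes gave an adjusted p of 0.000123 (edgeR), for a gene whose direction the low-count filter had fixed. Of its 2033 exon bases, 1163 are shared with Ccdc85b on the opposite strand. That gene had 326, 346, 292 and 475 counts in the knockdown livers and 186, 147, 174 and 224 counts in the controls, so reads were assigned to Ccdc85b in controls where Fosl1 had none. Ccdc85b itself did not pass the test (log2 fold change 0.28 ± 0.14, SE; adjusted p = 0.0963, edgeR).

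Fosl2, which encodes FRA2, a Fos protein that like FRA1 lacks a strong activation domain, lies on chromosome 5 at 32135801 to 32157842. It held 39.8, 28.8, 22.8 and 37.5 CPM in the knockdown livers, against 22.1, 16.0, 15.2 and 22.4 CPM in the controls. The lowest knockdown liver and the highest control were close, but the groups did not overlap. Fosl2 rose by 0.77 ± 0.19 (log2, SE; adjusted p = 0.00492, edgeR), and by 0.85 ± 0.20 without control replicate 4.

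Atf3, a stress-induced factor that represses as a homodimer and can activate with Jun proteins, lies on chromosome 1 at 191170296 to 191218039. It held 20.9, 16.2, 15.3 and 13.2 CPM in the knockdown livers, against 1.15, 1.68, 2.21 and 3.97 CPM in the controls. The lowest knockdown liver was well above control replicate 4, the highest control. Atf3 rose by 2.85 ± 0.30 (log2, SE; adjusted p = 1.82e-05, edgeR), a 7.22-fold difference, and by 3.28 ± 0.23 without control replicate 4.

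Maff, a small Maf gene whose protein lacks an activation domain and pairs with NRF2 and related factors, lies on chromosome 15 at 79346621 to 79359076. It held 7.23, 7.71, 6.29 and 6.08 CPM in the knockdown livers, against 0.816, 1.40, 1.03 and 1.69 CPM in the controls. Both groups were tight and far apart. Maff rose by 2.46 ± 0.22 (log2, SE), with the smallest adjusted p of the 10 members (5.83e-06, edgeR), and by 2.64 ± 0.21 without control replicate 4.

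Batf, which acts with Jun and IRF proteins in T cells, B cells and dendritic cells, lies on chromosome 12 at 85686669 to 85709087. It held 2.52, 2.30, 1.58 and 1.15 CPM in the knockdown livers, against 0.816, 0.421, 0.720 and 0.502 CPM in the controls. The levels were low and the groups did not overlap, and control replicate 4 was below the mean of the controls. Batf rose by 1.61 ± 0.33 (log2, SE; adjusted p = 0.00166, edgeR), and by 1.52 ± 0.37 without control replicate 4. The low-count filter favoured a rise for this gene. Markers of T and NK cells moved with it. Their 12 genes summed to 55.8 to 78.3 CPM in the knockdown livers and 19.9 to 35.4 CPM in the controls. Of the 11 tested, 9 rose, against 29.5% of all genes tested, and Cd4 fell. The 5 B cell markers summed to 3.33 to 5.43 CPM in the knockdown livers and 2.50 to 4.75 CPM in the controls, with none of the 4 tested past the threshold in edgeR. The part of these cells in the Batf result was not tested.

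**Figure D2:**
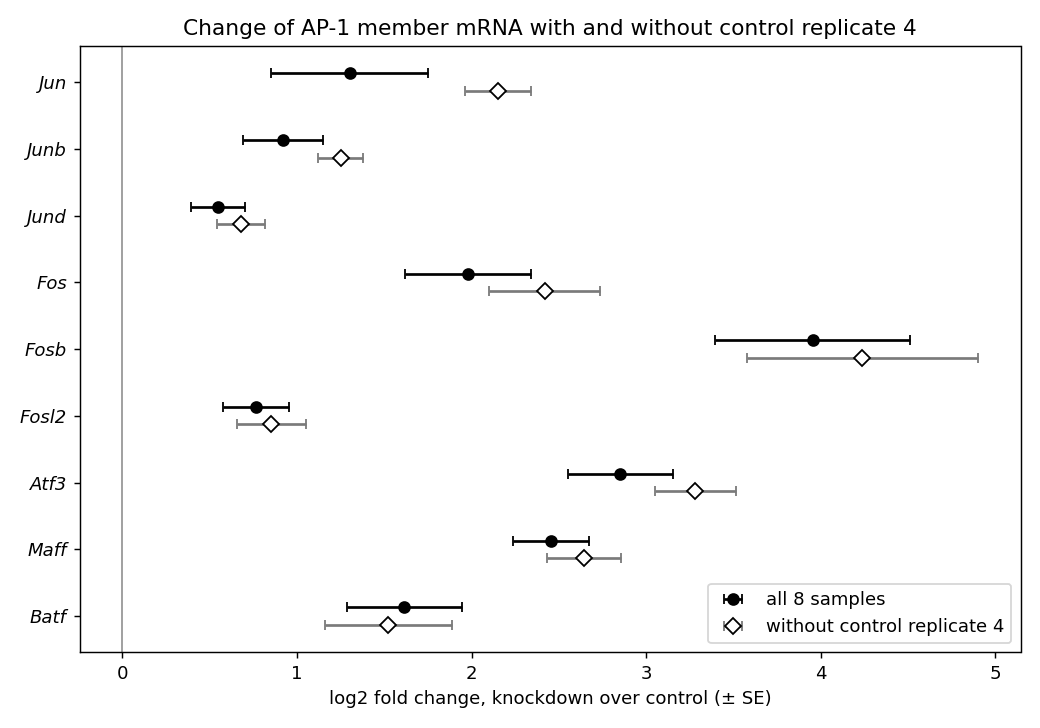
Log2 fold change of knockdown over control (horizontal axis, ± SE) for 9 AP-1 genes in all 8 livers (filled circles) and without control replicate 4 (open diamonds); Fosl1 is left out because its controls are at 0. Jun has 1.30 with it and 2.15 without it, Fosb has the largest value at 3.95, and all values lie above 0.

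The place of control replicate 4 differed between members. On the log2 CPM scale, 0% being the mean of the other controls and 100% the mean of the knockdown livers, it stood at 96.2% for Jun, 82.8% for Junb and 71.5% for Jund. It stood at 54.3% for Fos, 42.0% for Fosl2, 38.4% for Atf3, 24.6% for Maff and 22.1% for Fosb. It stood at -20.5% for Batf. The Jun genes in this liver were thus nearest to the knockdown level, while the median over all genes that rose was 21.5%.

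Levels can be compared between genes only per length of exon, and on that scale (CPM per kb) the Jun genes were far more abundant than the Fos genes. Jun family mRNA summed to 107 ± 7.55 CPM per kb in knockdown livers and 63.1 ± 22.3 in controls, and Fos family mRNA to 9.55 ± 3.21 CPM per kb in knockdown livers and 3.28 ± 0.947 in controls (SD, n = 4 each). Jund led in both groups, with 61.9 ± 7.67 CPM per kb in knockdown livers and 42.3 ± 9.72 in controls. In the knockdown livers Jun (25.2 ± 0.987 CPM per kb) and Junb (20.1 ± 2.83) followed without overlapping each other, then Atf3 (7.61 ± 1.51), Fos (5.06 ± 1.93) and Fosl2 (3.33 ± 0.812), whose ranges overlapped from one to the next. Maff (2.63 ± 0.296) overlapped Fosl2, and Batf (1.34 ± 0.451), Fosb (0.754 ± 0.533) and Fosl1 (0.408 ± 0.120) were lowest and overlapped from one to the next. In the controls Jun (10.2 ± 9.21 CPM per kb) and Junb (10.6 ± 4.46) overlapped, then came Fosl2 (1.96 ± 0.397), Fos (1.28 ± 0.698) and Atf3 (1.05 ± 0.569), again with overlap. Maff (0.476 ± 0.1498) overlapped Atf3 and Batf (0.437 ± 0.131), and all were above Fosb (0.0480 ± 0.0246). Atf3 was thus ahead of Fosl2 in the knockdown livers and behind it in the controls. These levels depend on the exon length used. For Junb it was 2301 bases here, while the authors deposited a length of 1809. With the shorter length Junb would overlap Jun in the knockdown livers, so their order there is not settled. Lengths also differed for Fosl2 (9680 here, 6537 deposited) and Fosb (6243 here, 3782 deposited). They differed as well for Maff (2594 here, 1902 deposited), Batf (1406 here, 955 deposited) and Fos (2352 here, 2108 deposited). The same holds for Atf3 (2154 here, 1984 deposited) and Fosl1 (2033 here, 1864 deposited). Only Jun and Jund had the same length in both sources.

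The make-up of the Fos family also differed. Fosl2 made up 35.7 ± 3.998% of Fos family mRNA per length in knockdown livers (30.0 to 39.4%) and 61.1 ± 11.1% in controls (49.7 to 74.5%), with no overlap. Fos made up 52.5 ± 4.004% in knockdown livers and 37.5 ± 10.9% in controls (SD, n = 4 each), where its share in control replicate 4 was the highest at 48.7%. In the Jun family, Jund made up 57.6 ± 3.73% in knockdown livers and 69.0 ± 8.61% in controls. Jun made up 23.6 ± 2.26% in knockdown livers and 14.2 ± 7.46% in controls, and both Jun family ranges overlapped because of control replicate 4. These shares are descriptions that also depend on the exon lengths used, and they were not tested.

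**Figure D3:**
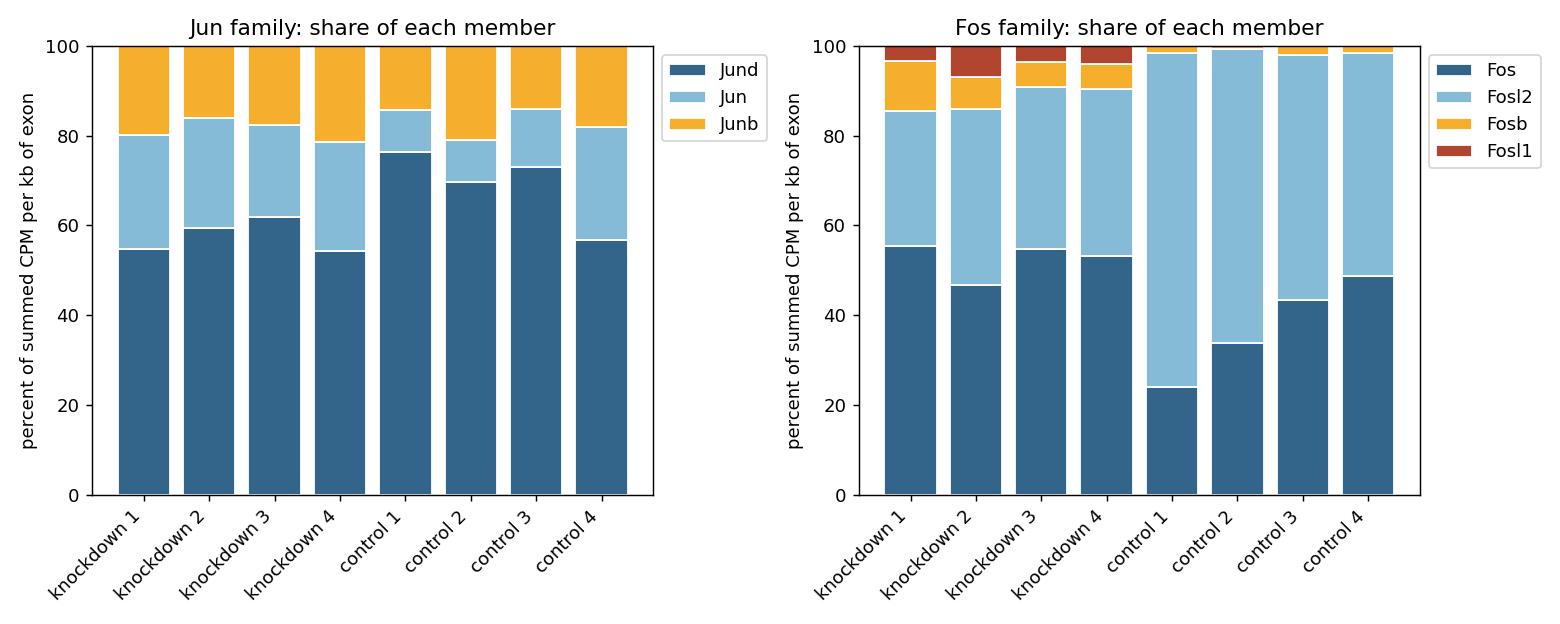
Share of each gene in the summed CPM per kb of exon (vertical axis, percent) of the Jun family (left) and the Fos family (right) in each liver, knockdown livers first. Fosl2 takes 30.0 to 39.4% of the Fos family in knockdown livers and 49.7 to 74.5% in controls, and Fosl1 appears in knockdown livers only.

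Of 8 other genes of the AP-1 family, 4 rose and 1 fell, with a median log2 fold change of 0.33. Over all genes tested 29.5% rose and 27.8% fell. With control replicate 4 left out, 4 of the 8 rose and 0 fell. Creb5, a partner of Jun proteins, held 3.30 ± 0.688 CPM in knockdown livers and 0.773 ± 0.282 CPM in controls, a rise of 2.09 ± 0.28 (log2, SE; adjusted p = 8.73e-05, edgeR). The relatives of Batf rose as well, Batf3 by 1.74 ± 0.25 and Batf2 by 1.65 ± 0.26 (log2, SE), in the same livers in which 12 of 13 macrophage and 9 of 11 T and NK cell markers rose, and the part of those cells was not tested. Atf2, whose dimers with c-Jun bind the Jun promoter site shown above, had a log2 fold change of 0.03 and did not pass the test. Atf2 is named here although the naming rule did not choose it.

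The small Maf genes and their CNC partners, which share the antioxidant response element, included 3 genes that rose and 1 that fell among 8, with a median log2 fold change of 0.14. These counts were near the 29.5% of all genes that rose and not above the 27.8% that fell. When control replicate 4 was left out, 4 rose and 2 fell. Nfe2l2, which encodes NRF2, held 163 ± 23.3 CPM in knockdown livers and 65.1 ± 5.06 CPM in controls and rose by 1.33 ± 0.11 (log2, SE; adjusted p = 3.56e-06, edgeR). Mafk rose by 0.78 ± 0.10, from the same test, to 32.2 ± 1.00 CPM in knockdown livers, against 18.8 ± 2.79 CPM in controls. Nfe2l1 fell by 0.47 ± 0.08 (log2, SE), but under total-count scaling it had 0.10 and was not called. The remaining small Maf gene, Mafg, held 85.6 ± 15.1 CPM in knockdown livers and 104 ± 11.5 CPM in controls and did not pass (adjusted p = 0.0758, edgeR). Maff had the largest log2 fold change of the small Maf genes, 2.46 against 0.78 for Mafk and -0.29 for Mafg, though these differences between genes were not tested.

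Of 33 other immediate-early genes, 16 rose and 3 fell, with a median log2 fold change of 0.81 against 0.00 over all genes, of which 29.5% rose and 27.8% fell. Egr2, a zinc finger factor, held 5.23 ± 1.84 CPM in knockdown livers and 0.645 ± 0.639 CPM in controls. It rose by 2.99 ± 0.48 (log2, SE; adjusted p = 0.000338, edgeR), and by 3.99 without control replicate 4. Klf6, a Krüppel-like factor, rose by 2.27 ± 0.14 to 65.4 ± 8.01 CPM in knockdown livers, against 13.6 ± 2.66 CPM in controls. Ier3, an early response gene for cell survival, rose by 2.22 ± 0.33 (log2, SE). With 0.374 CPM in its lowest control, Ier3 also needed its knockdown values to pass the low-count filter. How many more genes of this list did so was not counted. Nfil3, Nfkbia and Zfp36, whose products repress transcription, NF-kB and mRNA stability, fell by 0.83 ± 0.18, 0.42 ± 0.14 and 0.39 ± 0.12 (log2, SE). None of these 3 passed with total-count scaling, where 24 of the list rose and 0 fell. Under that scaling 63.9% of all genes tested rose. The 14 that did not pass included Dusp1, Ier2 and Gadd45b, with log2 fold changes of 0.04, 0.36 and 0.02, named after their values were seen. Ier2 passed without control replicate 4, with a log2 fold change of 0.62 (adjusted p = 0.0031, edgeR). Without control replicate 4, 20 of the list rose and 4 fell, against 30.6% of all genes tested that rose.

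Of 31 genes for the kinases and serum response factors upstream of AP-1, 9 rose and 7 fell, with a median of -0.02. Both counts were near those of all genes, of which 29.5% rose and 27.8% fell. Without control replicate 4, 9 rose and 10 fell. With total-count scaling 25 rose and 0 fell, where 63.9% of all genes rose. Mapk3, which encodes ERK1, held 76.3 ± 6.18 CPM in knockdown livers and 33.1 ± 3.42 CPM in controls and rose by 1.21 ± 0.09 (log2, SE; adjusted p = 2.39e-06, edgeR). Rps6ka1 and Rps6ka3, the RSK kinase genes below ERK, rose by 1.01 ± 0.16 and 0.69 ± 0.11 (log2, SE). Braf, Elk4 and Map2k6 fell by 0.79 ± 0.10, 0.68 ± 0.08 and 0.66 ± 0.24 (log2, SE), and none of them passed with total-count scaling. The Map2k6 call was also lost without control replicate 4. The genes of the c-Jun N-terminal kinases, Mapk8 and Mapk9, had log2 fold changes of -0.11 and 0.14, and neither passed the test. Mapk9 passed without control replicate 4, with a log2 fold change of 0.19 (adjusted p = 0.0418, edgeR). These JNK genes were named after their values were seen.

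Of 14 feedback inhibitors of MAP kinase signalling, 10 rose, 0 fell and 4 did not pass, with a median of 1.06, against 29.5% of all genes that rose. Without control replicate 4, 9 rose. Dusp5, a nuclear ERK phosphatase, rose by 2.40 ± 0.27 (log2, SE; adjusted p = 3.04e-05, edgeR) to 8.85 ± 0.736 CPM in knockdown livers, against 1.66 ± 0.866 CPM in controls. Dusp4, which acts on ERK and JNK, rose by 2.35 ± 0.19 to 17.2 ± 3.74 CPM in knockdown livers, against 3.35 ± 0.647 CPM in controls. Dusp8, a phosphatase of JNK and p38, rose by 1.85 ± 0.32 (log2, SE).

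Of 28 genes with described AP-1 sites, 24 were tested, of which 20 rose and 2 fell, with a median log2 fold change of 1.94. Over all genes tested 29.5% rose and 27.8% fell. The counts were 22 and 2 without control replicate 4. Mmp3, Mmp10, Il6 and Ptgs2 had too few counts to test. Sprr1a, a cornified envelope gene with a known AP-1 site in keratinocytes, held 30.6 ± 7.01 CPM in knockdown livers and 0.1896 ± 0.1496 CPM in controls (log2 fold change 7.29 ± 0.35, SE; adjusted p = 2.47e-07, edgeR). Timp1, an inhibitor of metalloproteinases, held 2.99 ± 0.192 CPM in knockdown livers and 0.1399 ± 0.217 CPM in controls, with a log2 fold change of 4.34 ± 0.59, or 6.34 without control replicate 4. Among the controls it was highest in the same liver as Jun. Sprr1a and Timp1 passed the low-count filter only with the help of their knockdown values. The same holds for Areg, which had 1 count over all controls. The filter thus favoured a rise for these genes, which are among the 20. How many more genes of the list passed in that way was not counted. Vegfa and Fn1 fell by 0.99 ± 0.08 and 0.59 ± 0.10 (log2, SE). With total-count scaling Fn1 had -0.02 and was not called. Macrophage markers summed to 1948 to 2312 CPM in knockdown livers and 765 to 959 CPM in controls, and stellate cell markers to 577 to 987 CPM in knockdown livers and 225 to 276 CPM in controls. Many genes of the list are also expressed in those cells, whose part in the result was not tested.

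**Figure D4:**
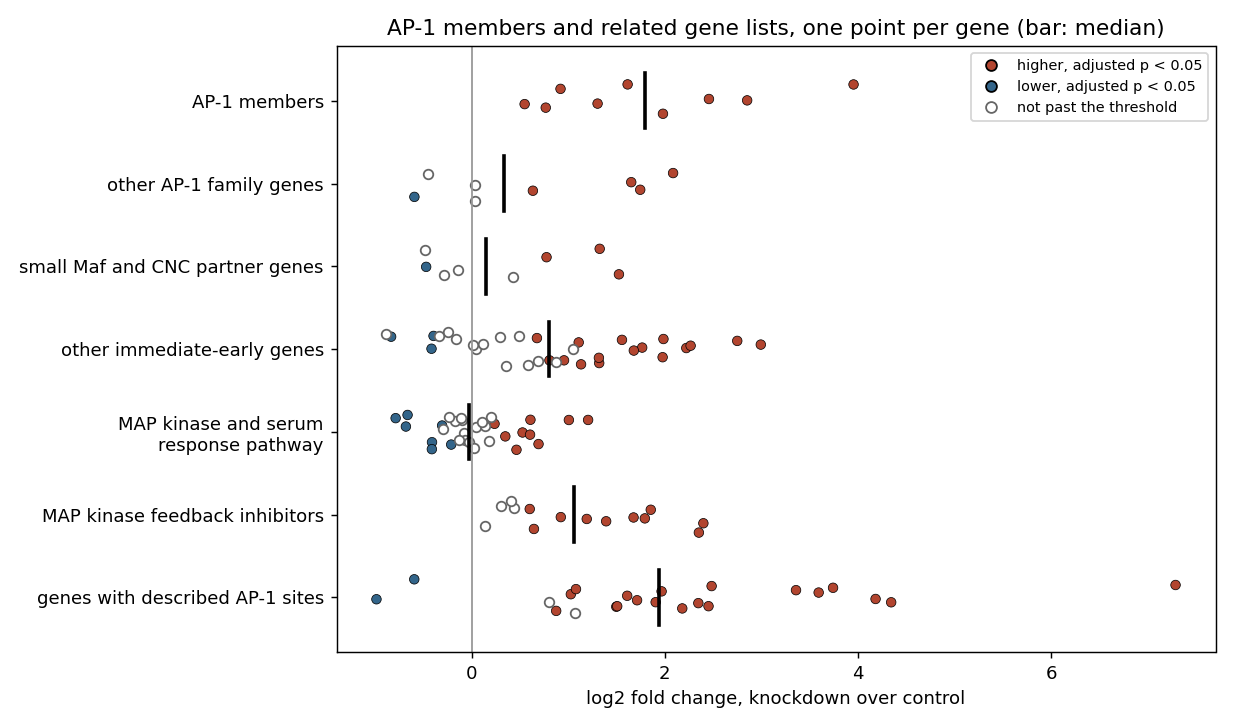
Log2 fold change of knockdown over control (horizontal axis) for each tested gene of the AP-1 members and 6 related lists; red points rose, blue points fell, open points did not pass, and black bars show medians. The 10 members have a median of 1.80 and the MAP kinase list one of -0.02; Fosl1 and Areg, with 0 and 1 control counts, are in the medians but not drawn.

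The authors' deposited table gave the same direction for all 10 members. In the authors' deposited table, 9 of them had an adjusted p under 0.05 and 6 were marked as significant, with the exception of Jun, Junb, Jund and Fosl2. For Jun the authors' deposited table listed a log2 fold change of 1.11 and an adjusted p of 0.0529. For Fosl1 the authors' deposited table listed a fold of 15.7, below the lower limit of 18.8 given above, and for Atf3 it listed 6.64.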

How the data were processed

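RNA was measured in 8 mouse liver samples, 4 per group. Per the labels' protocols, Trizol RNA was freed of DNA with DNase I and of ribosomal RNA before library preparation. The submitters' processing notes name the build mm10 and the tools SAMtools 1.9, GATK 3.8, Bowtie2 2.2.9 and fastp 0.19.5. Strandedness, the counting program and its annotation are not stated in these sources. The authors deposited estimated counts (expected counts, 10.9% of values not whole), which were rounded. Of 56181 entries, 645 assembled loci without a gene name, with 0.676 to 1.08% of counts, were left out. The authors also deposited their own comparison as a fold (ratio) of knockdown over control, its log2 value, and a p-value and adjusted p-value, per the file headers. Columns were assigned by the sample code in the labels. Positions, exon lengths and overlaps came from GENCODE mouse release 21, promoters from RefSeq.

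Knockdown and control were compared by edgeR 4.0.16 under R 4.3.3 (filterByExpr, TMM, glmQLFit, glmQLFTest, Benjamini-Hochberg adjustment over 15375 genes). SE is the log2 fold change divided by the square root of F, and log2 CPM used a prior count of 2. The labels list separate samples without naming the animals, and p-values therefore cover only the spread among these samples, which may be technical. No pair of replicates agreed within counting error (chi-square over its degrees of freedom at least 9.92). Alternatives were DESeq2 1.42.0, limma-voom (limma 3.58.1), other scalings and filters, the replicate block, the code letter, the samples coded C alone, the assembled loci and leaving out each sample.

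The members and lists were chosen with earlier results of these data known, and the core TGACGT after the promoters were read. The rule named all members, Eif4ebp3, and up to 3 higher and 3 lower genes of each list, ranked by size of log2 fold change, that passed the threshold and averaged at least 1 CPM, and for Fos and Jun the 5 genes of most similar deviations. Close family members and overlapping genes can share reads: Junb, Fosl1, Jun and Jund share exon bases with genes on the other strand, as do Atf2, Batf2, Creb5, Mafg, Mafk, Dusp1, Zfp36, Braf, Rps6ka1, Elk4, Dusp5, Dusp8 and Fn1 with other genes, and without strand information their counts remain uncertain. Some genes that the rule chose are not reported here.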

Additional observations from a re-analysis of the deposited data

How the results depend on the processing

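All 10 AP-1 members kept a positive log2 fold change under each of the 19 alternatives that gave a value. Of 189 such values, 182 stayed on the same side of the threshold and 7 did not, all for Jun. Those 7 were DESeq2 (adjusted p = 0.0519) and the edgeR fits without knockdown replicates 1, 2 or 4 or control replicates 1, 2 or 3. The number of members that rose was 9 to 10 when each sample was left out in turn, 9 with DESeq2 and 9 with a mean of at least 1 CPM, which removed Fosl1. Same-numbered samples of the groups deviated together for 1 of 4 pairs (r from -0.13 to 0.15), and 1 of 4 knockdown samples correlated best with its own number. Both were replicate 4 (r = 0.15), whose 2 codes share the letter D. Knockdown replicate 1, coded C, had the same r of 0.15 with control replicate 4. The r of knockdown replicate 3 with control replicate 2 was 0.17. With 4 samples per group these r values cannot show whether same-numbered samples were paired or shared a batch. With the replicate block 10 members rose, as did 4415 genes, while 4067 fell. Total-count scaling moved the counts most, with 9831 genes higher (63.9% of all genes tested) and 1187 lower, against 4528 and 4272. There 25 genes of the MAP kinase pathway rose and 0 fell, 5 small Maf and CNC genes rose and 0 fell, 0 immediate-early and 0 other AP-1 family genes fell, and 1 gene with an AP-1 site fell. The number of other AP-1 family genes that fell was 1, but 0 with upper-quartile factors, 0 with limma-voom, 0 with the samples coded C alone, 2 with the code letter and 0 to 1 when each sample was left out. Leaving out each sample gave 1 to 2 small Maf and CNC genes and 1 to 4 immediate-early genes that fell. The cause was not tested. Counting error limits Fosl1, Fosb and Batf, with at most 17 counts in a control.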

Other observations

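The deviation of each sample from the mean of its group, on the log2 CPM scale over 8 samples, showed how members varied together within groups. Of 45 pairs of members, 37 had a Pearson r above 0, with a median of 0.31, and without control replicate 4 the number was 30 of 45 with a median of 0.14. The deviations of Fos were most like those of Zcchc3 (r = 0.99), Iqcn (0.99), Sh2d1b1 (0.99), Dsp (0.99) and Twsg1 (0.98). The deviations of Jun were most like those of Tpm2 (0.99), Timp1 (0.99), Gm32885 (0.99), Btg2 (0.99) and 2410018L13Rik (0.98). Tpm2, which encodes a tropomyosin, averaged 14.8 CPM in the knockdown samples and 4.76 CPM in the controls. Btg2, an antiproliferative immediate-early gene, averaged 77.0 CPM in the knockdown samples and 22.6 CPM in the controls. These r values were picked as the highest among all genes tested, over 8 samples whose libraries all genes share, and are a description only. For Btg2 the r with Jun was 0.88 over 7 samples without control replicate 4.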
